A study of Sus scrofa with 8 samples.

Results

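The PGC-1 coactivators, the estrogen-related receptors (ERR), the PPAR receptors with their RXR partner, and the nuclear respiratory factors set the transcription of mitochondrial and fatty acid genes in heart muscle. Expression of 10 such genes was followed in left ventricular tissue of 8 pigs, and all 10 listed genes were found by symbol among the 14718 gene rows of the deposited table. They are the coactivators PPARGC1A and PPARGC1B, the receptors ESRRA, ESRRB, ESRRG, PPARA, PPARD and RXRA, and the factors NRF1 and GABPA. The 4 WT libraries carry a wild-type genotype label. Of the 4 libraries grouped as mutant, 3 carry a KCNH2 mutation label and 1, mutant replicate 4, carries a KCNH3 mutation label, although the series design speaks of KCNH2 alone. WT replicates 1 to 4 are the pigs numbered 1, 2, 4 and 5 in the labels, and mutant replicates 1 to 4 are pigs 6, 7, 8 and 9. KCNH2 encodes the potassium channel that carries the rapid delayed rectifier current of the ventricle. The labels give no allele, zygosity, sex, age, litter or collection time, so p-values measure only the spread between these samples. Values of single libraries are listed below in the order of replicates 1 to 4.

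PGC-1α and PGC-1β, the products of PPARGC1A and PPARGC1B, do not bind DNA themselves but dock on nuclear receptors and other factors and recruit the transcription machinery. The ERRs bind their sites without a known natural hormone and drive genes of the tricarboxylic acid (TCA) cycle, electron transport and energy transfer. PPARα and PPARδ bind fatty acids and their derivatives, pair with RXR and drive genes of fatty acid uptake and oxidation. NRF1 and the ETS factor GABPA act on nuclear genes for respiratory subunits, protein import and upkeep of mitochondrial DNA.

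Values are normalized counts, meaning the read count of a gene divided by 1 size factor per library. They are not divided by gene length, so levels are compared between libraries and not between genes. Libraries held 15.9 to 22.4 M reads (megareads). The 13 mitochondrially encoded genes took 31.7% to 87.9% of the reads in WT and 15.9% to 27.5% in mutant libraries, with the highest shares in WT replicates 3 (87.9%) and 4 (65.2%). Nuclear genes were thus left with 2.53 M reads in WT replicate 3 and 7.53 M reads in WT replicate 4, against 11.5 to 16.2 M reads elsewhere. KCNH2 ranged from 148 to 1909 normalized counts in WT and from 798 to 1839 in mutant libraries (log2 difference 1.21, limma adjusted p = 0.438), and gene counts do not show the edited sequence. KCNH3 had at most 5 reads in a library. Mutant replicates 3 and 4 were the most alike pair, yet a chi-square of 12.6 per gene set them apart beyond counting error, and they were kept as separate samples. Of 10 listed cardiomyocyte markers, 9 were in the table, and all 9 had reads in every library. In limma 7 of the 9 were higher in mutant libraries and 2 lower, with a median log2 difference of 0.27. Their summed level was 410885 to 567516 normalized counts in WT and 738201 to 745500 in mutant libraries. The sum weighs abundant genes most. In the authors' deposited table MYH7 (mean 192301) and MYH6 (mean 83970) had log2 fold changes of 1.00 and 1.84. There TNNT2, TNNC1 and MYL3 had -0.31, -0.25 and -0.04. Summed fibroblast markers ran from 6560 to 115096 in WT and from 26328 to 72010 in mutant libraries, and endothelial markers from 7184 to 37020 and from 15327 to 23979. All 4 tested erythroid markers were lower, with a sum of 49.7 (WT replicate 4) to 31804 in WT and 2517 to 2993 in mutant libraries. In limma all 7 macrophage markers were higher (median log2 difference 0.97), with sums of 731 to 4727 and 1474 to 4069. So were all 6 endothelial markers (median 0.38) and 5 of 6 fibroblast markers (median 0.86). The authors' deposited table gives macrophage markers log2 fold changes from -0.31 (C1QB) and 0.04 (CD163) to 1.04 (MRC1). CD68 and MRC1 had no read in some library. The cardiomyocyte sum and the mitochondrial share both separated the groups, and the part of these values in the differences below was not tested. In bulk tissue, fewer cells of a type and less RNA per cell cannot be told apart.

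None of the 10 regulators differed between mutant and WT ventricles at an adjusted p under 0.05 in limma, where 0% of the 11660 genes tested were called. All 10 passed the filter on low values. At an unadjusted p under 0.05 limma held 1 of the 10, ESRRG, against 13.9% of all genes (7.06% higher and 6.80% lower in mutant libraries). The mutant and WT libraries did not overlap for 1 of the 10, NRF1, against 11.4% of all genes (6.17% higher and 5.22% lower). The authors' deposited table called 0 of the 10, against 4.54% of the genes it tested (1.32% higher and 3.23% lower). On the recovered reads DESeq2 called 0 of the 10, against 4.56% of genes, and edgeR 0, against 0%. At an unadjusted p under 0.05 DESeq2 held 2 of the 10 (18.5% of genes) and edgeR 1 (14.8%). These shares are near the background. In limma, 7 of the 10 log2 differences were above 0 and 3 below, and their median was 0.30, beside 0.12 over all genes tested. All counts stayed at 0 called members under each of the 19 other settings.

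**Figure D1:**
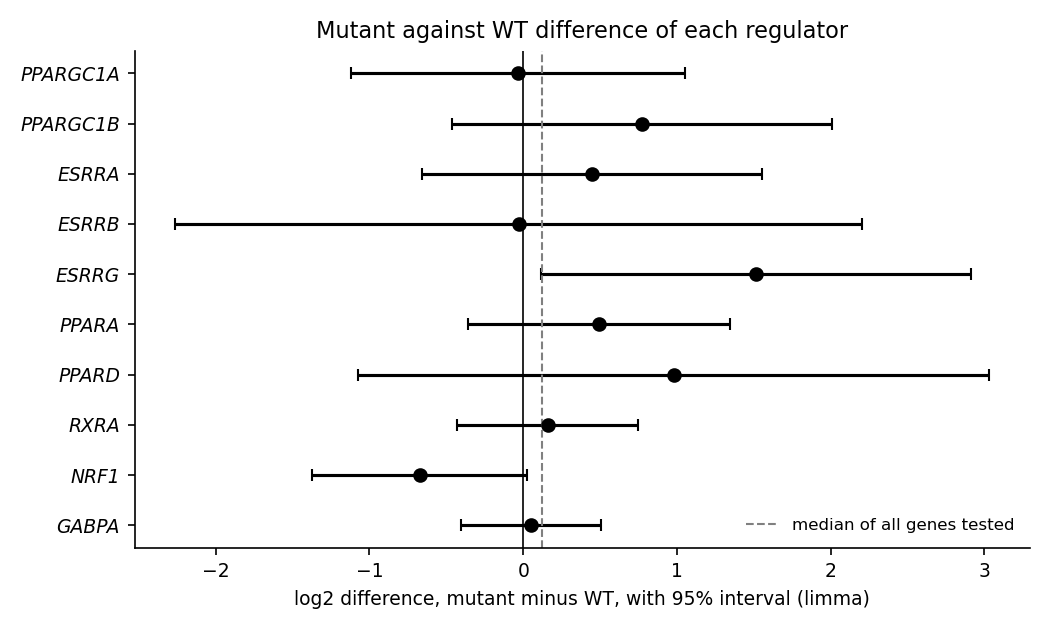
Log2 difference between mutant and WT libraries for each regulator (x axis, limma on log2(normalized count + 1)), with the 95% interval as bars and the median of all genes as a dashed line. ESRRG at 1.51 has the one interval that lies above 0, and the NRF1 interval, -1.37 to 0.02, reaches just past it.

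The coactivator gene PPARGC1A showed no difference beyond the spread between libraries, which was wide. WT libraries had 2063, 1451, 3585 and 591 normalized counts of it, and mutant libraries 1200, 1575, 2104 and 1455. WT libraries held both the highest and the lowest value, with all mutant libraries in between. WT averaged 1922 ± 1262 and mutant 1583 ± 380.5 (SD, n = 4). The log2 difference was -0.03 (95% interval -1.12 to 1.05, limma adjusted p = 0.979). An interval this wide does not show that the level was equal. The sign of so small a difference depended on scaling, being 0.0053 after TMM rescaling and 0.05 relative to reads of nuclear genes, and leaving out WT replicate 3 gave 0.36 and leaving out WT replicate 4 gave -0.51.

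PPARGC1B, which encodes the related coactivator PGC-1β, was higher in 3 of 4 mutant libraries than in 3 of 4 WT libraries. WT libraries had 228, 149, 552 and 104 normalized counts, and mutant libraries had 166, 374, 453 and 596. WT replicate 3 and mutant replicate 1 crossed over, and the groups overlapped. The means of 258 ± 203 and 397 ± 179 (SD, n = 4) gave a log2 value of 0.77 ± 0.55 for mutant minus WT (SE; limma adjusted p = 0.525). It was 1.23 without WT replicate 3, 0.44 without WT replicate 4 and 0.53 without mutant replicate 4, the library labelled KCNH3. Both coactivator genes were highest among WT libraries in replicate 3 and lowest in replicate 4, the 2 libraries with the largest mitochondrial shares.

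**Figure D2:**
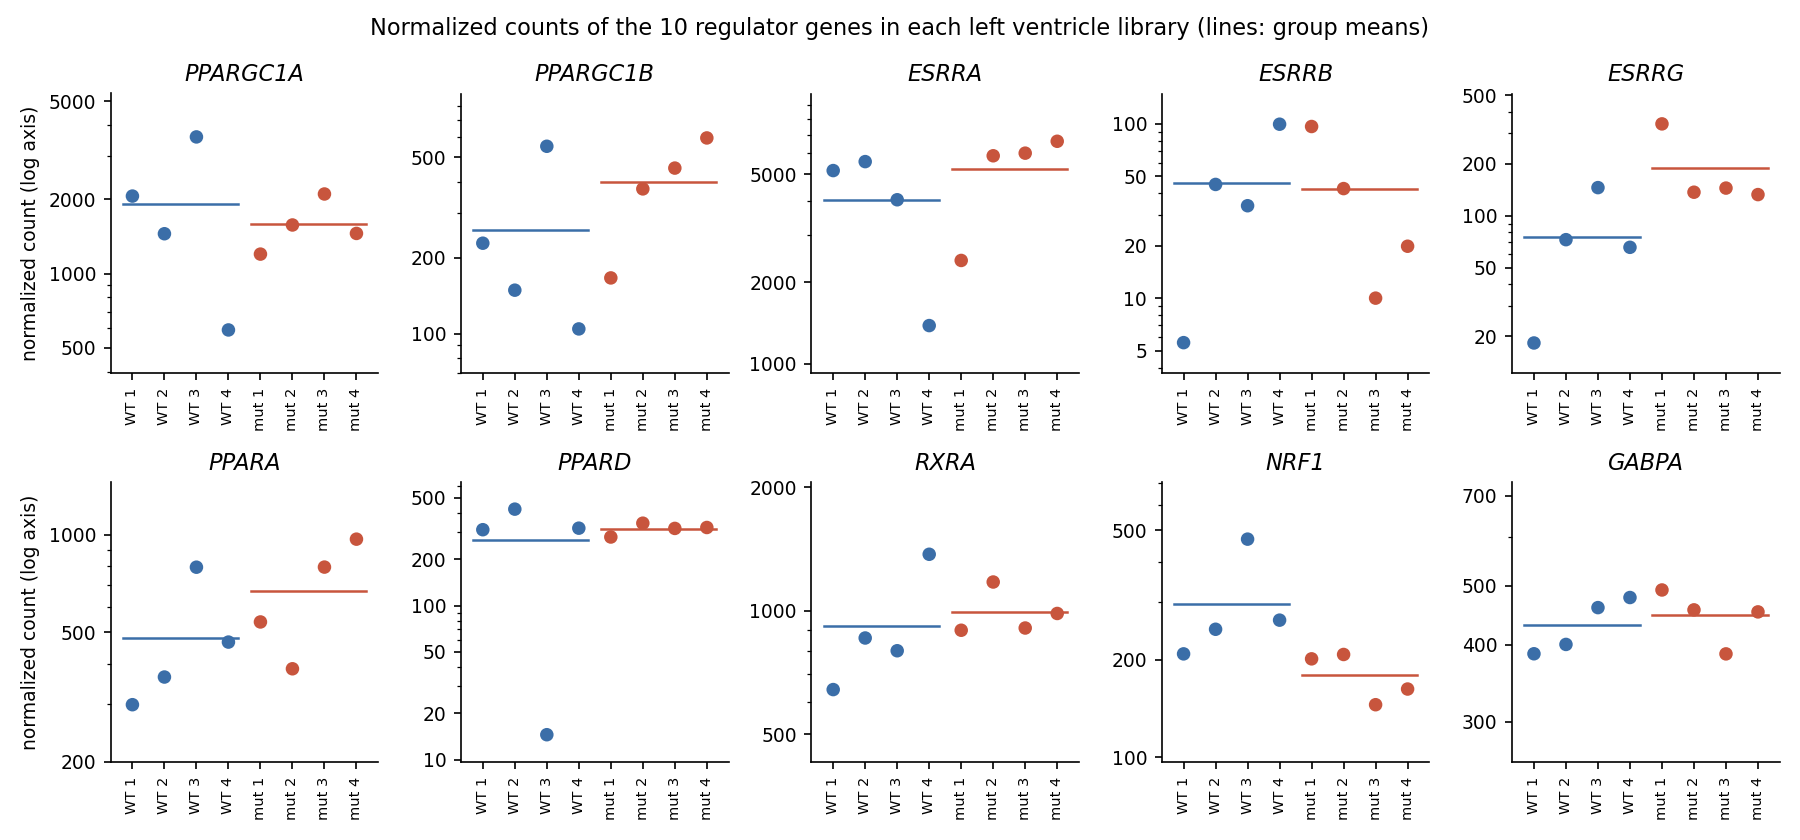
Normalized counts (y axis, log scale) of the 10 regulators in each of the 4 WT (blue) and 4 mutant (red) libraries, with group means as lines. WT replicate 4 is lowest for PPARGC1A, PPARGC1B and ESRRA, WT replicate 3 falls to 14.5 for PPARD, and mutant replicate 1 stands above the rest for ESRRG at 340.

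The 3 ERR genes did not share a pattern. ESRRA, the ERR that PGC-1α is best known to coactivate in muscle, had 5164, 5572, 4031 and 1385 normalized counts in WT replicates 1 to 4. In mutant replicates 1 to 4 it had 2408, 5855, 5986 and 6621. Mutant replicates 2 to 4 lay above every WT library, but mutant replicate 1 lay below 3 of them. The log2 difference was 0.45 ± 0.49 (SE; limma adjusted p = 0.675), and without WT replicate 4 it was -0.0043 (limma adjusted p = 0.997). Without mutant replicate 1 it was 0.79, and without mutant replicate 4 it was 0.30.

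ESRRG, an ERR that is abundant in heart and linked to oxidative metabolism after birth, had the smallest p of the 10 genes. It stood at 18.3, 72.6, 145 and 65.5 normalized counts among WT hearts and at 340, 137, 144 and 132 among mutant hearts. Of the WT libraries, only replicate 3 reached the mutant range, and it lay above 3 of the 4 mutant values. WT averaged 75.4 ± 52.5 and mutant 188 ± 101 (SD, n = 4). On the log2 scale mutant libraries were higher by 1.51 ± 0.62 (SE; unadjusted p = 0.0369, limma adjusted p = 0.327). By p it ranked at place 1315 of the 11660 genes. The authors' deposited table gives a log2 fold change of 1.37 (adjusted p = 0.181). The difference stayed above 0 in all 19 settings, from 0.96 without WT replicate 1 to 2.21 without both WT replicates 3 and 4, and no setting brought its adjusted p under 0.05 (0.180 to 0.631). These values rest on few reads in WT, 23 in replicate 1 and 30 in replicate 3, against 180 to 557 in mutant libraries.

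ESRRB, which is best known for its role in stem cells and the placenta, varied strongly within both groups. Its level was 5.56, 44.9, 33.9 and 99.5 normalized counts for WT and 96.5, 42.5, 10.01 and 19.9 for mutant libraries. The groups spanned nearly the same range, and the log2 difference was -0.03 (95% interval -2.26 to 2.20; limma adjusted p = 0.991). Its read counts were as low as 7 in WT replicates 1 and 3 and as high as 158 in mutant replicate 1. The libraries with the most ESRRB, WT replicate 4 and mutant replicate 1, were the ones with the least ESRRA. In mutant replicate 1, both ESRRB and ESRRG were at or near their highest while ESRRA and PPARGC1B were the lowest of the mutant group.

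**Figure D3:**
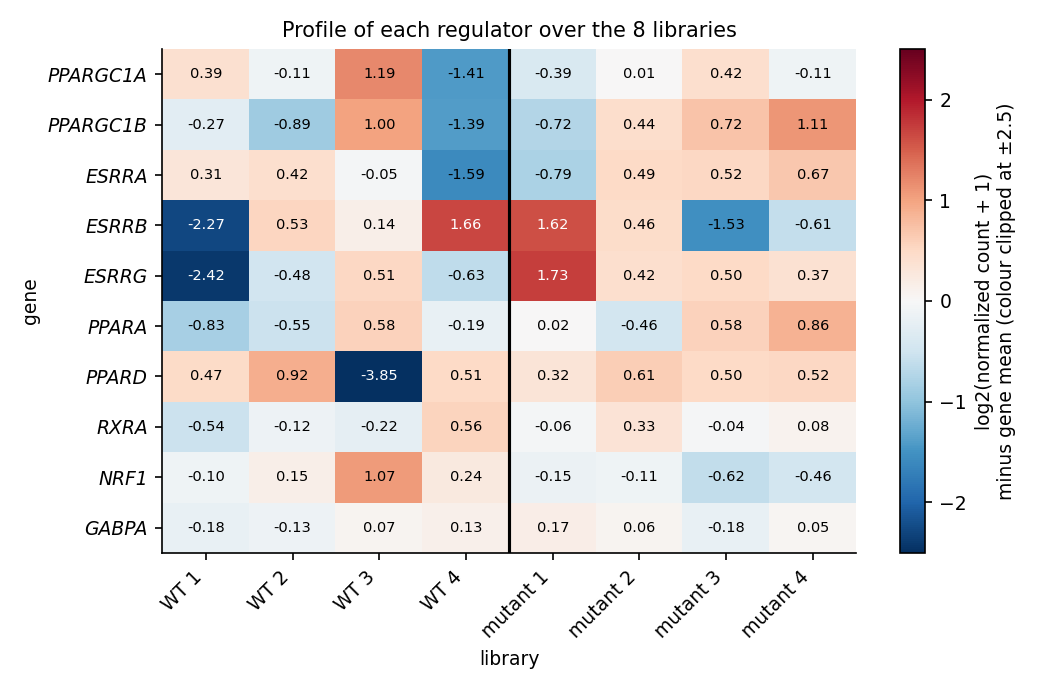
Each cell gives log2(normalized count + 1) of a regulator (rows) in a library (columns) minus that gene's mean over the 8 libraries, with red above and blue below. WT replicate 4 and mutant replicate 1 show ESRRA at -1.59 and -0.79 with ESRRB at 1.66 and 1.62, and PPARD in WT replicate 3 lies at -3.85.

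PPARA, the fatty acid receptor that dominates in oxidative heart muscle, had 300, 365, 795 and 467 normalized counts in WT replicates 1 to 4. In mutant replicates 1 to 4 it had 539, 387, 795 and 969. WT replicate 3 stood with the upper mutant libraries, and mutant replicate 2 fell among the WT libraries. The log2 difference was 0.50 ± 0.38 (SE; limma adjusted p = 0.548). It was 0.77 without WT replicate 3, 0.94 without both WT replicates 3 and 4, and 0.29 without mutant replicate 4.

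PPARD, the more broadly expressed receptor of the pair, was nearly constant in 7 of the 8 libraries. Mutant libraries had 279, 342, 317 and 321 normalized counts, and WT libraries 311, 422 and 318 in replicates 1, 2 and 4. In WT replicate 3 it had 14.5, which is 3 reads (exact Poisson 95% interval 0.619 to 8.77, counting error only). At the mean level of the other 7 libraries, 68.1 reads would have been counted in that library. The same library had 740 reads of PPARGC1A and 164 of PPARA. Its PPARD value set the group difference, which was 0.98 ± 0.92 (SE; limma adjusted p = 0.621) with it and -0.14 without it.

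RXRA, which pairs with the PPARs on DNA, did not pass the test. WT libraries held 643, 859, 799 and 1373 normalized counts and mutant libraries 897, 1175, 908 and 985. All mutant values lay inside the WT range. The log2 difference was 0.16, with a 95% interval of -0.43 to 0.75 (limma adjusted p = 0.785).

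NRF1, a factor for nuclear genes of the respiratory chain and of mitochondrial DNA maintenance, was the one regulator whose groups did not overlap. Normalized counts were 208, 248, 470 and 264 for WT and 201, 207, 145 and 162 for mutant libraries. The gap between the groups was under 1 normalized count, since mutant replicate 2 at 207.3 nearly met WT replicate 1 at 208.2. Group means were 298 ± 117 and 179 ± 30.1 (SD, n = 4), and mutant minus WT came to -0.67 ± 0.31 on the log2 scale (SE; unadjusted p = 0.0563, limma adjusted p = 0.368). The authors' deposited table gives -0.71 (adjusted p = 0.230). The difference was -0.43 without WT replicate 3, which had the highest NRF1 value and the fewest nuclear reads, and -0.36 without both WT replicates 3 and 4. It kept its sign in all 19 settings (adjusted p 0.229 to 0.663).

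GABPA, the DNA-binding subunit of the second nuclear respiratory factor, had the narrowest WT range of the 10, 1.24-fold. WT libraries counted 387, 401, 460 and 478 after normalization and mutant libraries 492, 456, 387 and 453. The means, 432 ± 44.4 and 447 ± 43.8 (SD, n = 4), were closer than the spread of either group. The log2 difference of 0.05 had a 95% interval of -0.40 to 0.51 (limma adjusted p = 0.917).

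Ratios of 2 genes inside a library depend on its size factor only through the 1 added to each normalized count. This matters most for low values, and 4 ratios were compared between the groups. The log2 ratio of GABPA to NRF1 was 0.89, 0.69, -0.03 and 0.85 for WT and 1.29, 1.13, 1.41 and 1.48 for mutant libraries. Every mutant library lay above every WT library, with means of 0.60 ± 0.43 and 1.33 ± 0.15 (SD, n = 4). The difference of 0.73 had p = 0.0286 in a two-sided exact permutation test, which with 70 assignments is the lowest value it can return, and 0.114 after adjustment over the 4 ratios. It mostly restates the NRF1 difference of -0.67 given above, since GABPA differed by 0.05. With each library left out in turn it ranged from 0.52 to 0.82. The log2 ratio of PPARGC1A to PPARGC1B was 3.17, 3.28, 2.70 and 2.49 for WT and 2.84, 2.07, 2.21 and 1.29 for mutant libraries. Only mutant replicate 1 reached into the WT range. The difference of -0.81 had an exact permutation p = 0.0857 (adjusted 0.171). It ranged from -1.05 to -0.53 when each library was left out in turn.

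The balance of the receptors was less even. The log2 ratio of ESRRG to ESRRA differed by 1.06 (exact permutation p = 0.429, adjusted 0.571), from -5.87 ± 1.67 for WT to -4.81 ± 1.33 for mutant libraries (SD, n = 4). WT replicate 1, at -8.07, and mutant replicate 1, at -2.82, each carried that difference in part. The value was 0.33 without WT replicate 1 and 0.40 without mutant replicate 1. The log2 ratio of PPARA to PPARD differed by -0.48 (exact permutation p = 0.971) and by 0.91 without WT replicate 3, where PPARD had 3 reads.

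**Figure D4:**
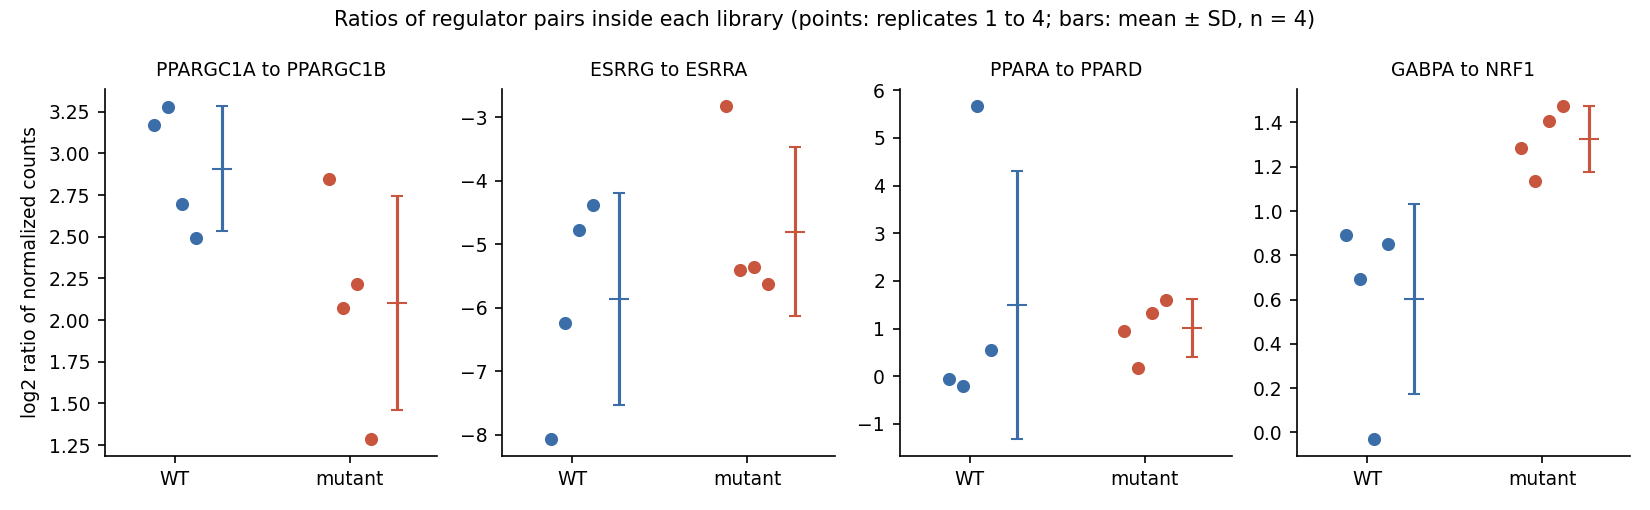
Log2 ratios of (normalized count + 1) of 4 regulator pairs inside each library. Points are replicates 1 to 4 of WT (blue) and mutant (red), and bars are mean ± SD (n = 4). The GABPA to NRF1 ratio separates the groups, from -0.03 to 0.89 in WT and from 1.13 to 1.48 in mutant libraries, whereas PPARA to PPARD holds 1 WT library at 5.68.

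On the log2 scale the regulators varied more among WT than among mutant libraries. The SD of the log2 values was larger in WT for all 10 genes, and the same held for 84.3% of all genes tested. PPARGC1A spanned 6.07-fold in WT and 1.75-fold in mutant libraries, and ESRRA spanned 4.02-fold and 2.75-fold. The log2 SDs were nearly equal for GABPA (0.148 in WT and 0.145 in mutant) and PPARA (0.61 and 0.59). On the scale of normalized counts the SD was larger in mutant libraries for PPARA (220 in WT and 260 in mutant), ESRRA (1885 and 1903) and ESRRG (52.5 and 101). The median SD over the 10 genes was 0.98 in WT and 0.46 in mutant libraries, beside 0.70 and 0.33 over all genes.

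Among genes that work with the PGC-1 coactivators, FLCN and PRKAG2 lay lower and NCOA1 and NCOA2 higher in mutant libraries, each without overlap between the groups. Of 41 listed partners, 39 were tested, 23 higher and 16 lower in mutant libraries, and their median log2 difference was 0.18. None was called by limma. The groups did not overlap for 4 of the 39 in the higher direction (6.17% of all genes) and 2 in the lower (5.22%), and the counts at an unadjusted p under 0.05 were also 4 (7.06%) and 2 (6.80%). The authors' deposited table calls 2 higher (1.32% of its genes) and 2 lower (3.23%) of the 39 it tested. FLCN encodes folliculin, whose loss in muscle is known to raise PPARGC1A. WT libraries had 717, 802, 954 and 1117 normalized counts of it and mutant libraries 338, 424, 382 and 328. Every mutant library lay well under the lowest WT library, and the log2 difference was -1.27 ± 0.22 (SE; limma adjusted p = 0.142). PRKAG2, a regulatory subunit gene of the energy sensor AMPK, had 1044 ± 727 for WT and 380 ± 58.2 for mutant libraries (SD, n = 4; log2 difference -1.23, limma adjusted p = 0.274).

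Genes of 2 nuclear receptor coactivators had higher values in mutant libraries. NCOA1, which encodes the steroid receptor coactivator SRC-1, had 98.5, 138, 111 and 129 normalized counts across WT and 397, 214, 289 and 311 across mutant libraries. The groups were well apart, with a log2 difference of 1.32 ± 0.29 (SE; limma adjusted p = 0.193). NCOA2, its relative, had 339 ± 32.4 and 644 ± 185 (SD, n = 4), a log2 difference of 0.89 ± 0.24 (SE; limma adjusted p = 0.228). Both are called higher in the authors' deposited table (adjusted p = 0.0015 and 0.0300), as FLCN and PRKAG2 are called lower (adjusted p = 6.21e-05 and 0.0445). Of the 8 tested genes in the coactivator group, 7 were higher, with a median of 0.78, beside 56.9% of all genes. Without WT replicate 3 the count was again 7 of 8 but the median was 0.38, and without both WT replicates 3 and 4 all 8 were higher, with a median of 0.51. PPARG, the adipocyte PPAR, had 89.1 ± 35.2 for WT and 88.8 ± 31.3 for mutant libraries (SD, n = 4). Of 6 listed adipocyte markers, 5 were in the table and 4 of these had no read in some library, and their summed level was 47.5 to 2146 in WT and 103 to 2227 in mutant libraries.

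Listed targets of the PPARs were higher in mutant libraries in 27 of 32 tested genes, with a median log2 difference of 0.57 against 0.12 over all genes, of which 56.9% were higher. The 23 tested genes of fatty acid use were all higher, with a median of 0.62. None was called by limma, and 3 of the 23 had an unadjusted p under 0.05, beside 7.06% of all genes in that direction. SLC27A1, a fatty acid transport protein gene, and VLDLR, a lipoprotein receptor gene, had log2 differences of 1.33 and 1.12 with overlapping groups. CPT1B, the muscle enzyme for fatty acid entry into mitochondria, had 7196, 6121, 2010 and 1087 for WT and 5341, 6583, 5965 and 6422 for mutant libraries. WT replicate 2 lay in the mutant range and replicate 1 above it, and replicates 3 and 4 lay below every mutant library.

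Without both WT replicates 3 and 4, the PPAR target list had 16 genes higher and 16 lower, with a median of 0.00271, and the fatty acid genes split into 13 higher and 10 lower. The mean centred log2 value of the list was -1.04 and -0.72 in those 2 libraries, against 0.003 to 0.61 in the other 6. The lipid storage and signal genes of the list were 4 higher and 5 lower. Among them ANGPTL4, a PPAR-induced inhibitor of lipoprotein lipase, had 717, 573, 339 and 423 among WT and 205, 146, 137 and 209 among mutant libraries. It lay lower in every mutant than in any WT library (log2 difference -1.52 ± 0.30 SE, limma adjusted p = 0.172). Over the 32 tested PPAR targets the groups did not overlap for 2 in the higher direction (6.17% of all genes). In the lower direction this held for 1, ANGPTL4 (5.22%). PDK4, a PPAR target that restrains pyruvate oxidation, ranged from 281 to 10589 in WT and from 2044 to 6432 in mutant libraries, and its log2 difference of 0.81 ± 0.95 (SE; limma adjusted p = 0.696) changed sign between tools and was -0.83 without both WT replicates 3 and 4.

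**Figure D5:**
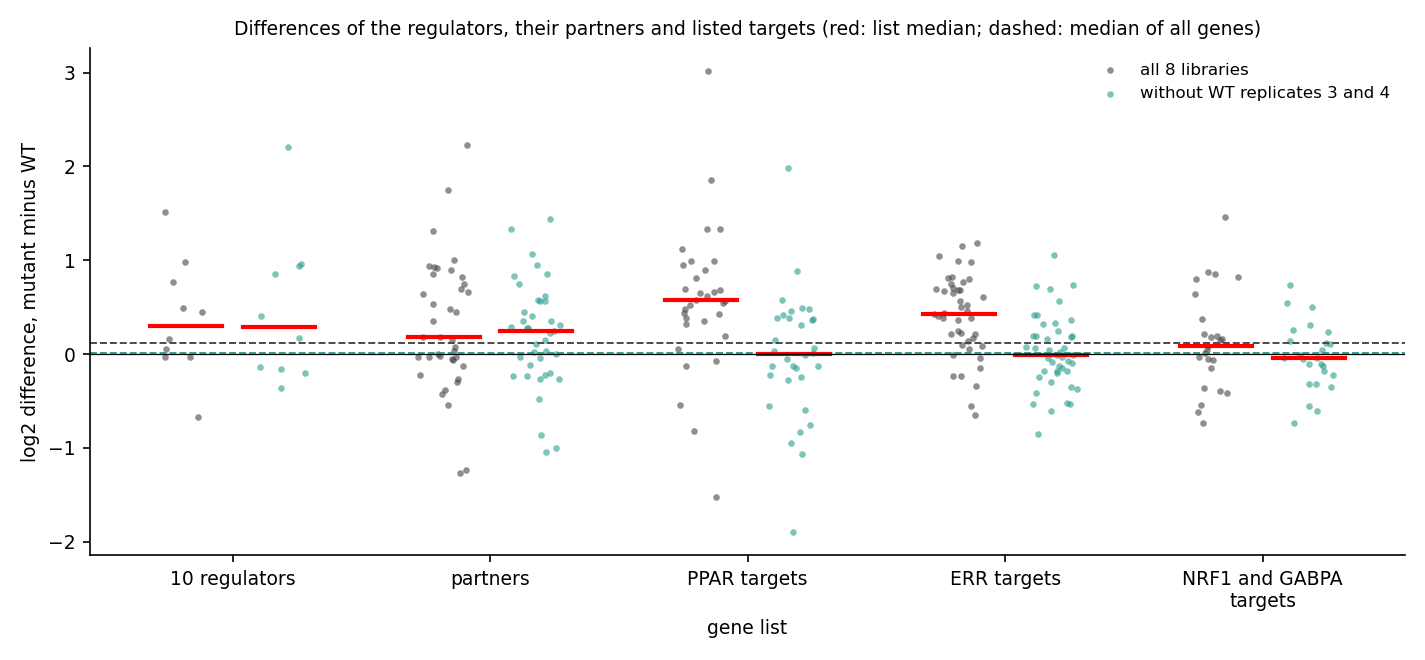
Log2 difference, mutant minus WT, of each tested gene (points) in the regulators, their partners and 3 target lists, with all 8 libraries (grey) and without WT replicates 3 and 4 (green), list medians in red and medians of all genes dashed. The medians of PPAR and ERR targets, 0.57 and 0.43 with all libraries, lie at 0.00271 and -0.01 without those 2.

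Listed ERR targets were higher in 36 of 44 tested genes, with a median log2 difference of 0.43, and limma called none. Genes of the TCA cycle were higher in 14 of 15 (median 0.69) and those of electron transport and ATP synthesis in 17 of 22 (median 0.38). MFN2, a mitochondrial fusion gene and known target of PGC-1 and ERRα, had 1820 ± 513 for WT and 3569 ± 900 for mutant libraries (SD, n = 4; log2 difference 0.98 ± 0.30 SE, limma adjusted p = 0.246). The TCA cycle gene IDH3A had a log2 difference of 1.18, and NDUFS1, a complex I subunit gene, one of 1.04. The groups did not overlap for NDUFS1. Over the 44 tested ERR targets this held for 4 in the higher direction (6.17% of all genes) and 1 in the lower (5.22%). At an unadjusted p under 0.05 in limma, 8 of the 44 were higher (7.06% of all genes) and 0 lower (6.80%). CYCS, the cytochrome c gene, had 18746, 10234, 10542 and 3441 normalized counts for WT and 11492 to 17106 for mutant libraries (limma adjusted p = 0.517). Like ESRRA and PPARGC1A, CYCS, IDH3A and NDUFS1 were lowest in WT replicate 4. The mean centred log2 value of the ERR list was -0.996 in that library, against -0.16 to 0.42 in the other 7. Without WT replicate 4, 27 of 44 were higher with a median of 0.15, and without both WT replicates 3 and 4, 21 were higher and 23 lower. The parts differed in the latter setting. Genes of the TCA cycle were higher in 11 of 15 (median 0.19). Those of electron transport and ATP synthesis were higher in 7 of 22 (median -0.10).

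Listed targets of NRF1 and GABPA were split in direction. Of 25 tested genes 15 were higher and 10 lower, with a median log2 difference of 0.08, close to that of all genes, and limma called none. COX15, a heme A synthesis gene, had 464 ± 149 in WT and 825 ± 133 in mutant libraries without overlap (SD, n = 4; log2 difference 0.87, limma adjusted p = 0.258). TOMM70, an import receptor gene of the outer membrane, differed by 0.64. COX7C, a cytochrome oxidase subunit gene, and NDUFS8, a complex I subunit gene, differed by -0.73 and -0.61, and NDUFS8 did not overlap between the groups. Over the 25 genes the groups did not overlap for 1 in the higher direction, COX15 (6.17% of all genes). In the lower direction this held for 1, NDUFS8 (5.22%). TFAM, the main packaging and transcription factor of mitochondrial DNA and a textbook NRF1 target, had 425, 441, 916 and 453 normalized counts for WT and 987, 471, 492 and 622 for mutant libraries. All mutant values lay above WT replicates 1, 2 and 4, whereas NRF1 was lower in every mutant library than in any WT library. WT replicate 3, the library with the highest NRF1 value, was second of the 8 for TFAM. Mutant replicate 1, the highest for TFAM, had 201 normalized counts of NRF1. The log2 difference of TFAM was 0.22 (limma adjusted p = 0.772).

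For 4 regulators, the genes with the most similar profile were found by the root mean square distance between centred log2 values over the 8 libraries, among 10113 genes. Nearest to PPARGC1A were PJA1 at 0.12, INO80E at 0.22 and C1orf52 at 0.22, where the median gene lay at 0.90. Nearest to ESRRA were CALM3 at 0.13, FITM1 at 0.20 and TTLL12 at 0.20, and nearest to PPARA were PTPRU at 0.14, CENPQ at 0.22 and TPST1 at 0.25. ESRRG had neighbours at larger distances, WFIKKN2 at 0.33, PPM1L at 0.43 and PRKAR2A at 0.46. The median gene also lay farther from it, at 1.28, against 0.91 for ESRRA and 0.80 for PPARA. CALM3, a calmodulin gene, had 4421, 5241, 3193 and 1108 normalized counts for WT and 1681, 4674, 4390 and 4744 for mutant libraries. It shared the low values of ESRRA in WT replicate 4 and mutant replicate 1, which follows from its choice as the nearest profile. Points of such profiles share libraries, depth and size factors.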

How the data were processed

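Polyadenylated RNA of 8 left ventricles (4 WT, 4 mutant) was sequenced from total RNA extracted with TRIzol, per the labels' protocols. The deposited table is arranged by gene symbol. Its 8 library columns hold a signal that the authors made by dividing counts by size factors. DESeq2 and the human build GRCh38 are named in the submitters' processing notes. No coordinates are printed, strand use is not stated, and for aligner and counter the names are not given in the sources used. Beside the signal stand the authors' deposited log2 fold change, its Wald score and its p-value, raw and adjusted. Whole reads were recovered from 100% of values (tolerance 1e-06), and 2 rows that name no gene were left out (0.392% to 0.853% of reads).

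Genes with at least 10 normalized counts in at least 4 libraries were tested with limma 3.58.1 (trended, robust) in R 4.3.3 on log2(normalized count + 1), a scale that understates changes of low genes, with Benjamini-Hochberg adjustment over all genes and calls at 0.05. Alternatives were DESeq2 1.42.0 and edgeR 4.0.16 on the recovered reads, TMM, quantile and nuclear-read scaling, leaving out libraries, a plain prior, a filter at 100 or none, and a pseudocount of 0.5 or 5. Scripts were tested on simulated data. Ratios were tested by exact permutation. The members and lists were chosen with earlier results of these data known. Named genes are all members, the 4 smallest p with a mean of at least 50 in each list, set textbook examples, and the 3 nearest profiles of 4 members. Some of these are not reported here. Of the list genes, 10 symbols were not matched and were not analysed here. Intervals cover counting or replicate error only.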

Additional observations from a re-analysis of the deposited data

Results flagged for a closer look

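ESRRG had 340 normalized counts in mutant replicate 1, while the other 3 mutant libraries lay between 132 and 144, so this library stood far from the rest of its group. On the scale of normalized counts it did so in 1 of 20 groups of 4 libraries (10 genes in WT and in mutant), and chance alone gives about 1 in 20. On the log2 scale used for the tests, 3 of the 20 groups held such a library. These were ESRRG in mutant replicate 1 again, ESRRA in mutant replicate 1 with 2408 normalized counts (the next lowest mutant library had 5855), and PPARD in WT replicate 3 with 14.5 (the next lowest WT library had 311). The log2 scale was added after the values were seen. Without mutant replicate 1 the log2 difference was 1.19 for ESRRG and 0.79 for ESRRA, and without WT replicate 3 it was -0.14 for PPARD.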

How the results depend on the processing

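No paired analysis was possible because the labels number the pigs separately and share no number between groups. No regulator was called in any of the 19 other settings. Over all genes limma called 0, and the count was 582 with DESeq2, 3 after quantile rescaling, 12 without both WT replicates 3 and 4, and 0 to 3 with each library left out in turn. All genes had a median log2 difference of 0.12 in limma, 0.20 relative to nuclear reads and -0.06 in DESeq2, and differences smaller than this shift cannot be read as a direction. DESeq2 called FLCN (-1.28), ANGPTL4 (-1.57), NCOA1 (1.34), NCOA2 (0.92) and PRKAG2 (-1.45), which limma did not.

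Signs changed as follows, and the cause was not tested. PDK4 was -0.044 in DESeq2 and -0.037 in edgeR. After TMM rescaling PPARGC1A was 0.0053, ESRRB 0.0083 and PPARG 0.037. PPARGC1A was 0.063 after quantile rescaling. Relative to nuclear reads PPARGC1A was 0.051, ESRRB 0.051 and PPARG 0.082. Without both WT replicates 3 and 4, ESRRA was -0.14, ESRRB 0.86, PPARD -0.21, PDK4 -0.83 and CPT1B -0.13, and the PPARA to PPARD ratio was 1.14. In the same setting the median of ERR targets was -0.0080 and that of NRF1 and GABPA targets -0.046, while that of PPAR targets stayed above 0 at 0.0027.

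With each library left out in turn, PPARGC1A ranged from -0.51 to 0.36, ESRRA from -0.0043 to 0.79, ESRRB from -0.79 to 0.52 and PPARD from -0.14 to 1.45. PPARG ranged from -0.20 to 0.24, PDK4 from -0.12 to 1.62 and TFAM from -0.011 to 0.48. The PPARA to PPARD ratio ranged from -1.05 to 0.91, and the median of NRF1 and GABPA targets from -0.093 to 0.17. WT replicate 3, with 2.53 M reads of nuclear genes, limits the precision of low genes most, since 1 read there equals 4.84 normalized counts.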

Other observations

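RXRG, the RXR form typical of muscle, was noticed after its values were seen. It had 1280 normalized counts in mutant replicate 1 and 33.9 to 112 in the other 7 libraries. The same library held the highest ESRRG, NCOA1, NCOA2 and TFAM values of the 8. Many other genes also set it apart from mutant replicates 2 to 4, with a chi-square of 191 to 275 per gene. Pairs among mutant replicates 2 to 4 gave 12.6 to 65.8. The share of all genes with their highest value in mutant replicate 1 was not counted.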
